A study of Drosophila melanogaster with 4 samples.

Results

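Transcripts of 6 odorant-binding protein genes, Obp19a, Obp19d, Obp56d, Obp56g, Obp56h and Obp59a, were compared between pools of untreated Drosophila melanogaster heads. They were found by symbol in the platform annotation and made up 6 of 2406 genes with a value on at least 3 of 4 arrays. They were represented by 12 clones of 4208 analysed, a clone being a cDNA printed as a pair of adjacent duplicate spots. The genes were chosen by their log2 ratios on these same arrays, so the values below describe the arrays and are not tests.

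Odorant-binding proteins are small soluble proteins that support cells secrete into the lymph of olfactory and taste sensilla, where they bind hydrophobic molecules such as odorants and pheromones. In flies many of them are made in the antennae, maxillary palps and mouthparts, which a whole-head sample contains, and some are also made in reproductive and other tissues. Obp19d, also known as PBPRP-2, is present in both antennae and taste organs, and Obp56d is likewise made in both. Obp19a is expressed in the antennae. Obp59a is required for the sensing of humidity. Obp56h affects the cuticular hydrocarbons and mating behaviour of males, and Obp56g functions in the male reproductive tract, where it takes part in forming the mating plug.

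The 4 two-colour arrays formed 1 group, NF-NF, in which a head pool from unmated, untreated Oregon-R males was hybridized against another such pool, all flies being fed normal food (NF). Flies were 3 to 4 days old, were kept in vials of 30, and received no drug. In replicates 2, 3 and 4 both pools had been kept for 12 h in the treatment vessel, and in replicate 1 the Cy5 pool had been kept for 12 h and the Cy3 pool for 6 h. Each RNA sample came from many pooled heads, so differences between individual flies were not measured. In the study these arrays served as the control for flies fed the convulsant pentylenetetrazole, which were not analysed here.

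Values were log2 ratios of the Cy5 over the Cy3 signal, and from each array its median over the 4208 clones was subtracted, so that 0 is the ratio of the median clone and -1 is 2-fold lower in the Cy5 pool. The medians subtracted were 0.14, 0.00, 0.08 and -0.70 on replicates 1 to 4. The labels tell the 2 pools apart only on replicate 1, by their hours in the vessel. On the other arrays both pools have the same label, so a mean over arrays is not a contrast of 2 conditions. The labelled dye order below is Cy5 over Cy3 as given for each array. The methods of the study mention dye-swapped slides without naming them. A sign therefore shows only which pool of an array was higher as labelled, and the signs of different arrays may not be comparable. Over all analysed clones, the correlation (r) was 0.43 between replicates 1 and 2, 0.71 between 1 and 3 and 0.36 between 2 and 3. Between replicate 4 and replicates 1, 2 and 3 it was -0.01, 0.35 and 0.01. What these correlations stem from was not tested. In pooled heads, fewer cells that make a transcript and less transcript per cell cannot be told apart.

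Replicate 4 stood apart with values for 2240 of 27648 spots, against 7966 to 8429 on the others. Of the 12 clones, 2 had values on all 4 arrays and 10 on 3, and of the latter 9 lacked replicate 4. Only a ratio was deposited, so the abundance of no transcript could be read. Of the marker genes on the platform, 6 of 13 for photoreceptors and 5 of 5 for neurons were measured on at least 3 arrays. For other tissues these counts were 7 of 9 for muscle, 6 of 14 for gut digestive enzymes and 4 of 11 for fat body. They were 12 of 36 for cuticle and 1 of 7 for the male reproductive tract. Such counts do not show which tissues the pools held.

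Of the 38 measured values of the 12 clones, 31 lay within 0.5 of the array median, and the exceptions were concentrated on 1 array. The SD of all analysed clones was 0.34, 0.23, 0.38 and 0.37 on replicates 1 to 4. The share of all clones within 0.5 was not computed, so nothing is read from this count. On replicate 1 the clones ranged from -0.55 to 0.94, on replicate 2 from -0.36 to 0.37, and on replicate 4, where 3 were measured, from -0.24 to 0.27. On replicate 3 they ranged from -2.28 to 0.38.

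On replicate 3, 4 of 11 measured clones, 1 each of Obp59a, Obp56h, Obp19a and Obp56g, were more than 2-fold lower in the Cy5 pool. Over all 3984 clones measured there, 0.803% lay below -1. Since the genes were chosen with these values in view, this count describes replicate 3 and nothing is read from the comparison of the shares. Below -1 there were 0 of 12 of these clones on replicate 1, where 0.856% of all clones were, 0 of 12 on replicate 2 (0.0476%) and 0 of 3 on replicate 4 (0.104%).

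**Figure D1:**
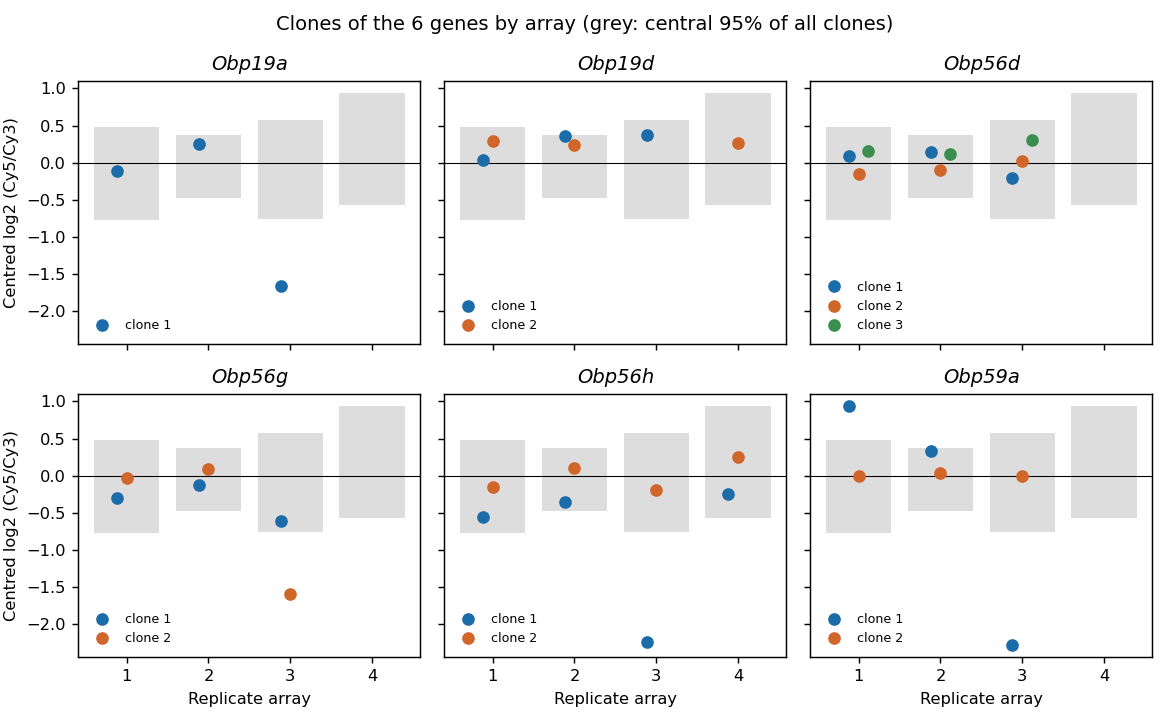
Centred log2 ratio (Cy5 over Cy3, y axis) of each clone of the 6 genes on each of the 4 arrays (x axis), 1 panel per gene and 1 colour per clone, with grey boxes for the central 95% of all clones on that array. On replicate 3 clones of Obp19a, Obp56g, Obp56h and Obp59a lie between -2.28 and -1.60, while the other clones of the last 3 genes lie between -0.61 and 0.00.

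Obp59a, the humidity-sensing gene, had the clone with the widest range of the 12 in the labelled dye order. This clone 1 was at 0.94 on replicate 1, 0.33 on replicate 2 and -2.28 on replicate 3, which is 4.86-fold lower in the Cy5 pool of the last. The value on replicate 1 rested on 1 spot, and that on replicate 2 averaged spots at 1.01 and -0.34. The range of 3.22 was wider than that of 99.9% of all clones, and it is narrower if replicate 3 is turned, where the value is then 2.28. Clone 2 of the same gene was at -0.01, 0.04 and 0.00 on the same arrays, so that its values stayed at the array median. The mean of clone 1 was -0.34 ± 1.71 (SD, n = 3) and that of clone 2 was 0.01 ± 0.03 (n = 3), and the mean of clone 1 became 0.64 ± 0.43 (n = 2) without replicate 3 and -0.97 without replicate 1.

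Obp56h, the gene linked to male hydrocarbons and mating, had the clone with the lowest mean of the 12 in the labelled dye order. Clone 1 was at -0.55, -0.36, -2.24 and -0.24 on replicates 1 to 4, below the median on 4 of 4 arrays and 4.71-fold lower in the Cy5 pool of replicate 3. Its mean was -0.85 ± 0.93 (SD, n = 4), lower than all but 0.143% of clones, and it was -0.38 ± 0.16 (n = 3) without replicate 3. With 2 arrays turned, the mean was 0.45 for replicates 2 and 3, 0.39 for 3 and 4 and -0.55 for 2 and 4. With replicate 3 alone turned the mean was 0.27, and with replicates 2 to 4 turned it was 0.57. Clone 2 was at -0.15, 0.10, -0.20 and 0.25, with a mean of 0.00 ± 0.21 (n = 4) and 2 of 4 values below the median. With its clones averaged Obp56h was at -0.42, above the -0.43 of Obp56g and the -0.51 of Obp19a. Clone 1 was below clone 2 on each array, by 0.40, 0.46, 2.04 and 0.50 in log2.

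Obp56g, the mating plug gene, was below the array median on replicate 3 in both of its clones. Clone 1 was at -0.30, -0.12 and -0.61 on replicates 1 to 3, and clone 2 at -0.03, 0.10 and -1.60, the last 3.03-fold lower in the Cy5 pool. Both clones had their lowest value on replicate 3, although they differed by 0.99 there. The means were -0.34 ± 0.25 (SD, n = 3) for clone 1 and -0.51 ± 0.95 (n = 3) for clone 2, and without replicate 3 they were -0.21 ± 0.13 and 0.03 ± 0.09 (n = 2 each).

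Obp19a, the antennal gene with a single clone, was at -0.11, 0.26 and -1.67 on replicates 1 to 3. It averaged -0.51 ± 1.02 (SD, n = 3). The value on replicate 3 was made of 1 spot at -3.32 and its duplicate at -0.01, so that it rested on a single spot. A gap as wide as the 3.31 between these duplicates was exceeded in 0.101% of spot pairs of that array. Without replicate 3 the mean was 0.07 ± 0.26 (n = 2).

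Obp19d, present in antennae and taste organs, was above the array median at every measured value. Clone 1 was at 0.04, 0.37 and 0.38 on replicates 1 to 3, and clone 2 at 0.29, 0.23 and 0.27 on replicates 1, 2 and 4. With the clones averaged, the gene was at 0.17, 0.30, 0.38 and 0.27 on replicates 1 to 4, a mean of 0.28 ± 0.09 (SD, n = 4), which was the highest mean among the measured genes of the family. The sign of these ratios depends on the labelled dye order: with replicates 2 and 3 turned in case those slides were the swapped ones, the mean of clone 1 was -0.23 and that of clone 2 was 0.11. As deposited, before the array median was subtracted, clone 2 was at -0.43 on replicate 4.

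Obp56d, the other gene of antennae and taste organs, varied least of the 6 when its clones were averaged. Its clone 1 was at 0.09, 0.14 and -0.21, clone 2 at -0.15, -0.10 and 0.02 and clone 3 at 0.16, 0.11 and 0.31 on replicates 1 to 3. The 3 clones lay between -0.15 and 0.16 on replicates 1 and 2 and between -0.21 and 0.31 on replicate 3, and the gene average was 0.03, 0.05 and 0.04. Its mean was 0.04 ± 0.01 (SD, n = 3).

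Both duplicate spots were low for 3 of the 4 clones that were low on replicate 3. The spots were at -2.49 and -2.07 for Obp59a clone 1, at -1.66 and -2.82 for Obp56h clone 1 and at -1.76 and -1.44 for Obp56g clone 2. Over all measured clones of these genes 37 pairs of spots had both values, and the median gap within a pair was 0.16. Gaps over 1 were found in 3 pairs, those of Obp19a and Obp56h clone 1 on replicate 3 and of Obp59a clone 1 on replicate 2, where the spots were at 1.01 and -0.34. In the 34 remaining pairs the widest gap was 0.43. Such gaps were found in 0.190%, 0.261%, 0.729% and 0.804% of all pairs on replicates 1 to 4. On replicate 1, Obp59a clone 1 was measured by 1 spot, since the other had no value.

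**Figure D2:**
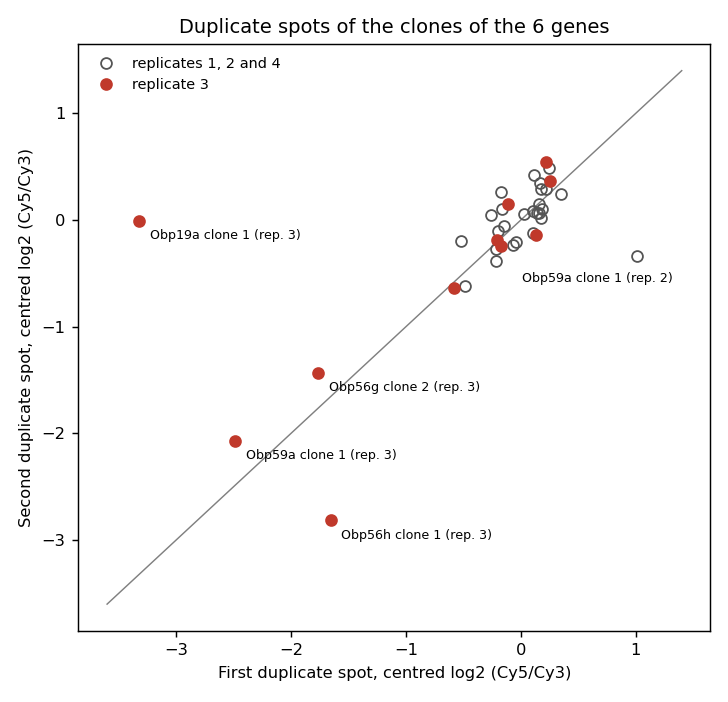
Centred log2 ratio of the first (x axis) and second (y axis) duplicate spot of each clone of the 6 genes, with replicate 3 in filled red, the other arrays in open grey and the line of equal values. The low points of Obp59a, Obp56g and Obp56h have both spots below -1, whereas Obp19a has 1 spot at -3.32 and 1 at -0.01.

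Different clones of a gene were then compared on the same array, a comparison that does not depend on the dye order. On replicate 3 the median absolute gap over 132 pairs of clones of 122 genes was 0.25, and 3 pairs differed by more than 2. The pair of Obp59a, with a gap of 2.28, and that of Obp56h, with 2.04, were among these 3. The gap of Obp56g was 0.99, exceeded by 4.55% of pairs. Gaps of Obp56d clones there were between 0.23 and 0.52, and Obp19d had only 1 clone with a value on replicate 3. On replicates 1 and 2 the median gaps over 150 pairs were 0.24 and 0.16, and 0 pairs differed by more than 2. Where clones of a gene disagree, the annotation does not tell which one measures its transcript, and clone sequences were not used here.

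The clones were also read against the spots next to them in the table. Around Obp56h clone 1 the median of the 49 nearest measured spots on replicate 3 was -0.36, around clone 2 it was -0.35, around Obp56g clones 1 and 2 it was -0.36 and -0.29, around Obp59a clone 1 it was -0.17 and around Obp19a it was 0.24. With these medians subtracted in place of the array median, the values on replicate 3 were -1.87 for Obp56h clone 1, -1.31 for Obp56g clone 2, -2.11 for Obp59a clone 1 and -1.91 for Obp19a, all still below -1. Obp56g clone 1 was at -0.25 after this step and Obp56h clone 2 at 0.15. After the same step Obp59a clone 2 was at -0.44 and Obp56d clone 3 at -0.14 on replicate 3.

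**Figure D3:**
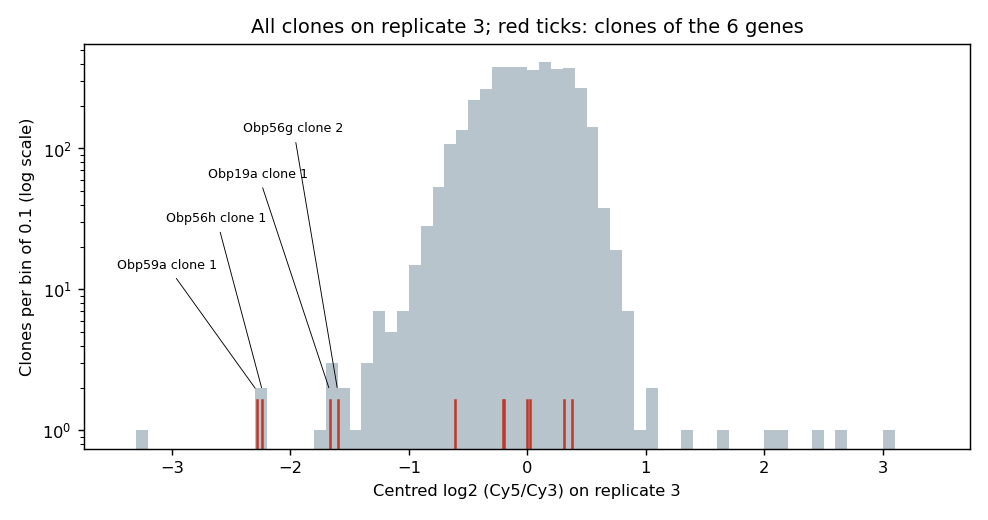
Number of clones (y axis, log scale) in bins of 0.1 of the centred log2 ratio on replicate 3 (x axis), with red ticks for the 11 measured clones of the 6 genes. The 4 lowest ticks, between -2.28 and -1.60, stand in the sparse lower tail, and the other 7 lie between -0.61 and 0.38 within the main body.

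In genome order some of the 6 genes lie near each other. In the RefSeq annotation Obp19a and Obp19d lie on chromosome X with only Obp19b and Obp19c between them. Obp56d, Obp56g and Obp56h belong to a run of odorant-binding protein genes on chromosome arm 2R, where Obp56g and Obp56h are adjacent and 4 protein-coding genes, among them Obp56e and Obp56f, separate Obp56d from Obp56g. Obp59a lies on the same arm, 399 protein-coding genes away from Obp56h. On replicate 3 the adjacent Obp56g and Obp56h each had a clone below -1, while their other clones were at -0.61 and -0.20. Obp56d was at 0.04 over its clones. Obp19a was at -1.67, from 1 spot at -3.32 and its duplicate at -0.01, and Obp19d was at 0.38. The genes were chosen with these values in view, so nothing is read from their positions.

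Among 52 odorant-binding protein genes listed, 20 had at least 1 clone of their own on the platform, and 13 were measured. Of the 33 clones of these 20 genes, 20 had values on at least 3 arrays, 13 had none and 0 had values on 1 or 2 arrays. Genes with clones but no value were Obp19b, Obp44a, Obp84a, Obp99a, Obp99b, Obp99d and lush, which encodes a protein that binds a male pheromone. Since spots were dropped for saturation as well as for weak signal, a missing value does not show that a transcript was absent.

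The 7 other measured genes of the family gave 8 clones, of which 0 were below -1 on replicate 3. Their lowest value there was -0.77, for Obp56e, which was at 0.12, -0.17 and 0.41 on replicates 1, 2 and 4. This value of -0.77 rested on 1 spot. Obp47a was lowest on the same array, at -0.44, after -0.21 and -0.07 on replicates 1 and 2. The pattern of 1 low clone beside another near the median was also seen on replicate 1, where Obp19c clone 2 was at -1.81 and clone 1 at -0.07. On replicates 2 and 3, clone 2 was at -0.16 and -0.13 and clone 1 at 0.08 and 0.11. The -0.13 of clone 2 averaged spots at 0.67 and -0.93, whereas its spots on replicate 1 were at -1.61 and -2.02. Obp57c lay between -0.25 and -0.10 and Obp8a between -0.12 and 0.14. Obp99c lay between -0.21 and 0.28, and Obp83cd between -0.29 and 0.36. The median of clone means was -0.04 for the 12 clones of the 6 genes, -0.06 for the 8 other clones of the family and 0.00 for all 4208 clones. With clones averaged per gene, the median mean of the 6 genes was -0.29, as the low clones then weigh on 4 of them.

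**Figure D4:**
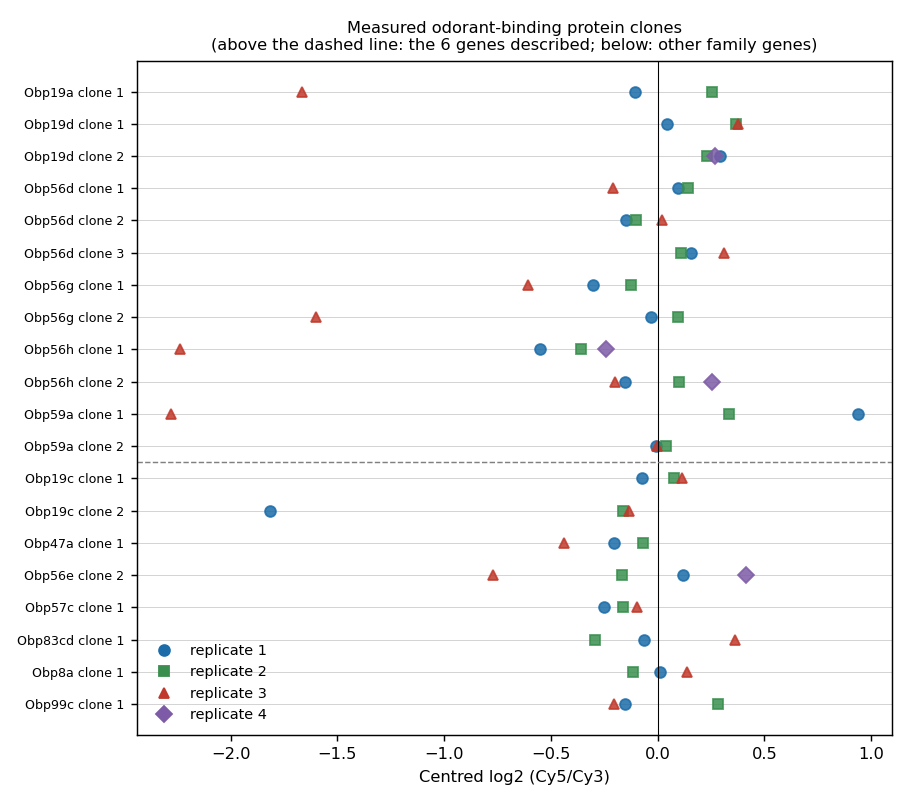
Centred log2 ratio (x axis) of every measured clone of the odorant-binding protein family (y axis), with 1 symbol per array; the 6 genes are above the dashed line and the 7 other measured genes below it. Red triangles (replicate 3) are far to the left for 4 clones above the line, and the blue circle (replicate 1) of Obp19c clone 2 is at -1.81.

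Other genes of smell and taste and markers of other tissues were read on the same arrays. Of the other olfactory list, 5 of 10 genes on the platform were measured, and their mean was 0.09, -0.03 and 0.17 on replicates 1 to 3, with values on replicate 3 between -0.19 (CheA75a) and 0.61 (Ir47a, of the ionotropic receptor family of chemosensory receptors). The odorant receptor gene Or33a was at 0.13, 0.04 and 0.21, and Gr61a, a taste receptor gene, at 0.29, -0.02 and 0.27. On replicate 4 only Ir47a of this list had a value, and it was at -0.67. None of the 5 was below -1 on any array. Gene averages of the measured photoreceptor list were 0.03, 0.16 and 0.00 on replicates 1 to 3, of the neuronal list -0.23, -0.13 and -0.14, of the muscle list -0.05, 0.17 and -0.07, and of the cuticle list 0.12, 0.10 and 0.03.

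Averages of the fat body and gut lists were above the median on the same arrays, although single members were not. The fat body list, 4 measured of 11 on the platform, averaged 0.54, 0.22 and 0.43 on replicates 1 to 3. The yolk protein genes were its highest members, Yp3 at 1.49, 0.34 and 1.31 and Yp2 at 0.89, 0.30 and 0.36. The other members were near the median, Lsp2, a larval storage protein gene, at -0.05, 0.12 and 0.09 and apolpp, a lipoprotein gene, at -0.19, 0.13 and -0.06. On replicate 4 the 2 measured members of the fat body list were Yp3 at 2.08 and apolpp at -0.17. The gut digestive enzyme list, 6 of 14, averaged 0.28, 0.01 and 0.37, with Mal-A2, a maltase gene, at 0.53, 0.10 and 0.78. The single measured male reproductive gene, betaTub85D, a tubulin gene of the testis, was at -0.52 on replicate 1, 0.54 on replicate 2 and -0.30 on replicate 4, with no value on replicate 3. Whether the tissues of these lists had a part in the low values of the 6 genes on replicate 3 was not tested.

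Each clone's mean was also set against 0 over all clones with limma, with Benjamini-Hochberg adjustment at 0.05, two-sided. Of 4208 clones 0 were called (0.00%), with 1272 at an unadjusted p under 0.05, and 0 of the 12 clones of the 6 genes were. Nothing further is read from this count, since the genes were chosen by the same ratios.

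The named clones whose profiles were most like that of Obp56h clone 1, by the root mean square difference of centred log2 ratios over 4 arrays among 435 named clones, were those of CG4607 (0.47), Unc-115b (0.53), HIP (0.60), Tmem214 (0.68) and cyst (0.69). CG4607 was at 0.08, -0.03, -1.64 and -0.08, and thus low on replicate 3 alone, whereas cyst was at -0.93, -0.50, -0.92 and -0.31. For Obp19d clone 2, which had the highest mean of the 12 clones, the nearest of 572 named clones over replicates 1, 2 and 4 were Gs1l and CG6696 (0.06 each), Nup43 (0.06), Mulk (0.10) and Peritrophin-A (0.10).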

How the data were processed

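RNA of pooled heads was amplified, labelled with Cy5 or Cy3 and hybridized to 4 cDNA arrays, 1 slide per replicate. The authors quantified spots with GenePix Pro 6.0 and applied a ratio-based normalization in Acuity 4.0, in which spots under 100 units and weak against the background were ignored. They kept spots with under 3% saturated pixels, a region R2 of at least 0.6 and a signal-to-noise ratio of at least 3. As deposited, the values are log2 ratios, from which faint and saturated spots are missing.

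Adjacent duplicate spots were averaged into 13824 clones, and 0 pairs held 2 gene names. Clones with values on at least 3 arrays (4208; 2551 named by 1 gene, 16 by several, 1641 by none) were centred on each array's median. Symbols of the platform annotation were updated by Entrez identifier for 98.5% of probes with 1 gene, through RefSeq's table of assembly Release 6. No genome build is named for the files, so no coordinates are given. limma 3.58.1 in R 4.3.3 tested each clone against 0, and was tested on simulated data. The methods' one-class Significance Analysis of Microarrays (SAM) was rebuilt with 16 sign patterns. Other settings were values as deposited, local medians of 49 spots, single duplicate spots, turned signs, other filters and leaving out each replicate. A limit on the gap between duplicates and the counts below -1 were chosen after seeing the data.

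The 6 genes and all lists were chosen with earlier results of these data known. Named genes were the 6, other measured family genes, the 5 clones nearest in profile to the lowest and highest clone, and the lowest or highest genes of the lists. Or33a, Gr61a, Ir47a, Yp2 and Lsp2 were named after their values were seen. The 4 arrays limit the precision, and their spread may be technical.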

Additional observations from a re-analysis of the deposited data

Results flagged for a closer look

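Of 8 sets of 4 array values examined, 4 held a value far from the other 3. Chance gives about 1 in 20 such sets when the sets are independent and not chosen by their values. These sets share arrays and were partly chosen for their extremes, so their count is not compared with that rate. Obp56h clone 1 stood at -2.24 on replicate 3, against -0.55 to -0.24 on the other arrays. The gap between the clones of Obp56h, which holds the same clone 1 values, stood at -2.04 on replicate 3, against -0.50 to -0.40 on the others. Replicate 4 stood apart by its 2240 spots with a value and by its array median of -0.70. Values of the genes on replicate 4 exist for Obp19d clone 2 and both clones of Obp56h alone.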

How the results depend on the processing

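No paired analysis was possible because the arrays form 1 group. The count of clones called by limma was 0 in most settings, 2 with the median of the 49 nearest spots subtracted, 1 with clones on 2 or more arrays, 152 with values left out where duplicate spots differed by over 1, and between 0 and 374 with 1 replicate left out (374 without replicate 4). The clones tested numbered 726, 734, 950 and 3976 without replicates 1, 2, 3 and 4, against 4208 in the main setting. The rebuilt SAM called 62 at a false discovery rate of 5%. None of the 12 clones was called in any limma setting, but not all 12 were tested in each. Without replicate 1 or 2, or with all 4 arrays required, only the clones of Obp56h had enough values. Without replicate 3, Obp19d clone 2 was tested beside them, and without replicate 4 it was not tested. With clones averaged per gene, no single clone was tested. With replicate 3 turned, the mean of Obp56h clone 1 minus clone 2 went from -0.85 to 0.17, to 0.40 with replicates 2 and 3 turned, 0.42 with 3 and 4 and 0.65 with 2 to 4. This mean was -0.62 with replicate 2 turned, -0.60 with 4 and -0.37 with 2 and 4. Without 1 replicate it was between -0.998 and -0.45 (-0.45 without replicate 3). The median of the 12 clone means was -0.28 with clones averaged and recentred per gene, and between -0.08 and 0.07 without 1 replicate. The root mean square of all values of the 12 clones was 0.70, and between 0.29 and 0.83 without 1 replicate (0.29 without replicate 3). With values left out where duplicate spots differed by over 1, the clones below -1 on replicate 3 numbered 2, Obp59a clone 1 and Obp56g clone 2. With the second spot alone they numbered 3. The share of all clones below -1 was not computed for these settings, so nothing is read from these counts. Of 192 clone means under other settings, 151 moved by less than the clone's SD over arrays and 41 by more, mostly with signs turned. Leaving out or turning an array without a value for a clone could not move its mean. An outlying array also widens the SD. Obp59a clone 1 went from -0.34 to 1.18 with replicate 3 turned, within its SD of 1.71. Obp19d clone 2, with an SD of 0.03, moved by more in 10 settings. The counts therefore do not show which means are steady.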
